A study of Mus musculus with 40 samples.

Results

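PAX5-P80R and PAX5-Δ2-6 were compared on 12 of the 40 arrays of the series, 6 for each construct, taken by the construct named in the sample titles. Each array held RNA of J558LuM, a mouse plasmacytoma line (a tumour line of antibody-secreting cells), after transduction with the construct. The other groups were MIR, the empty vector, and PAX5-WT, the wild-type protein, with 7 arrays each, which served as an outside reference here. PAX5-G183S and PAX5-G183V (7 arrays each) were not compared here and appear in 1 plot. All 12 arrays were on plate 2, and each construct had 3 arrays in RNA isolation batch 1 and 3 in batch 2. PAX5-P80R came from transductions 1 to 3 in batch 1 and transductions 48 to 52 in batch 2. PAX5-Δ2-6 came from transductions 4 to 6 in batch 1 and transductions 53 to 57 in batch 2, so isolation batch and round of transduction cannot be told apart. MIR and PAX5-WT came from other transductions (34 to 63) and lay on both plates. The transductions were made in 1 cell line, and a p-value here reflects only how transductions of that line varied. RNA was taken from bulk cultures, in which fewer cells of a kind and less RNA per cell cannot be told apart.

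PAX5 is the transcription factor that commits lymphoid progenitors to the B lineage. It binds DNA through an N-terminal paired domain, activates genes of the B cell receptor and its signalling, and represses genes of other lineages and of plasma cells. Plasma cells switch PAX5 off, which makes a plasmacytoma line a host in which its targets start low. P80R changes an amino acid of the paired domain. The labels name the other construct only as PAX5-Δ2-6 and do not spell out what it lacks.

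The values are log2 signals as deposited, 1 probe set for each of 17097 genes. A difference is the PAX5-P80R mean minus the PAX5-Δ2-6 mean with its standard error (SE), adjusted for isolation batch, so 1 unit is a doubling. A gene was called where limma gave an adjusted p under 0.05. The medians of the 12 arrays lay between 4.22 and 4.26, and the median SE of a difference was 0.077. The labelled cell type was checked on defining genes. Xbp1, the regulator of the secretory programme, was at 13.21 to 13.4 in PAX5-P80R and 13.17 to 13.32 in PAX5-Δ2-6. The light chain gene Iglv1 was at 14.05 to 14.13 and 14 to 14.17. The immunoglobulin genes Ighm (3.43 to 3.93 and 3.55 to 3.74) and Igha (3.57 to 4.13 and 3.6 to 3.71) were below the array medians in both groups. The B cell genes Cd22, at 3.83 to 4.19 and 3.76 to 4.23, and Ebf1, at 3.47 to 3.69 and 3.53 to 4.04, were at or below the array medians in both groups. The Pax5 probe set had a median of 4.95 in PAX5-P80R, 5.0 in PAX5-Δ2-6 and 4.51 in MIR, and it differed by -0.19 ± 0.18 between the constructs (adjusted p = 0.74, limma). Whether this probe set lies in the transduced sequence is not stated in the labels or files used, so it checks neither construct.

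Of the 17097 genes 384 were called (2.25%), 239 higher (1.4%) and 145 lower (0.848%) in PAX5-P80R. At an unadjusted p under 0.05 there were 2231. Of the called genes 47 were at least 1.5-fold higher and 28 at least 1.5-fold lower. The 6 arrays of the groups did not overlap for 208 genes above (1.22%) and 133 genes below (0.778%). The 3 PAX5-P80R arrays of isolation batch 2 stood apart from the other 3 for a set of genes described further down, and differences of many named genes are therefore also given by batch. A test against a minimum change of 1.5-fold called 15 genes. These were Nav3, Ets1, Ifitm3, Ifi44l, Ctsw, Ackr3, Plek, Ipmk, Irgm1 and Ptpn22, higher in PAX5-P80R, and Asb9, Klra17, B3galnt1, Spag6 and Mycn, lower.

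The largest difference was in Nav3, which encodes neuron navigator 3, a protein of microtubule ends. Its level in PAX5-P80R was lowest at 8.44, median 9.13 and highest at 9.69, against 3.76, 4.0 and 4.41 in PAX5-Δ2-6. The groups were far apart, and the PAX5-P80R arrays of batch 1 were the highest of all. Nav3 was 33.7-fold higher, a difference of 5.07 ± 0.16 (adjusted p = 2.39e-09, limma), and its other 2 probe sets differed by 2.91 ± 0.21 and 2.89 ± 0.15. MIR lay at 3.84 to 4.53 and PAX5-WT at 8.43 to 10.09, so PAX5-P80R was in the range of the wild-type protein for this gene and PAX5-Δ2-6 in that of the empty vector. Ets1, a transcription factor of lymphocytes that restrains plasma cell differentiation, ranged from 5.78 over a median of 6.71 to 7.55 in PAX5-P80R. In PAX5-Δ2-6 it ranged from 3.0 over 3.44 to 4.16. Its difference was 3.15 ± 0.26, or 8.91-fold (adjusted p = 3.25e-05, limma), and it was 2.49 in batch 1 and 3.81 in batch 2. The other Ets1 probe sets differed by 0.85 to 2.52 in the same direction. Again MIR (3.16 to 4.45) lay with PAX5-Δ2-6. PAX5-WT (6.0 to 6.76) lay within the wider spread of PAX5-P80R. PAX5-P80R was at 5.78 to 6.39 in batch 1 and at 7.04 to 7.55, above PAX5-WT, in batch 2.

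**Figure D1:**
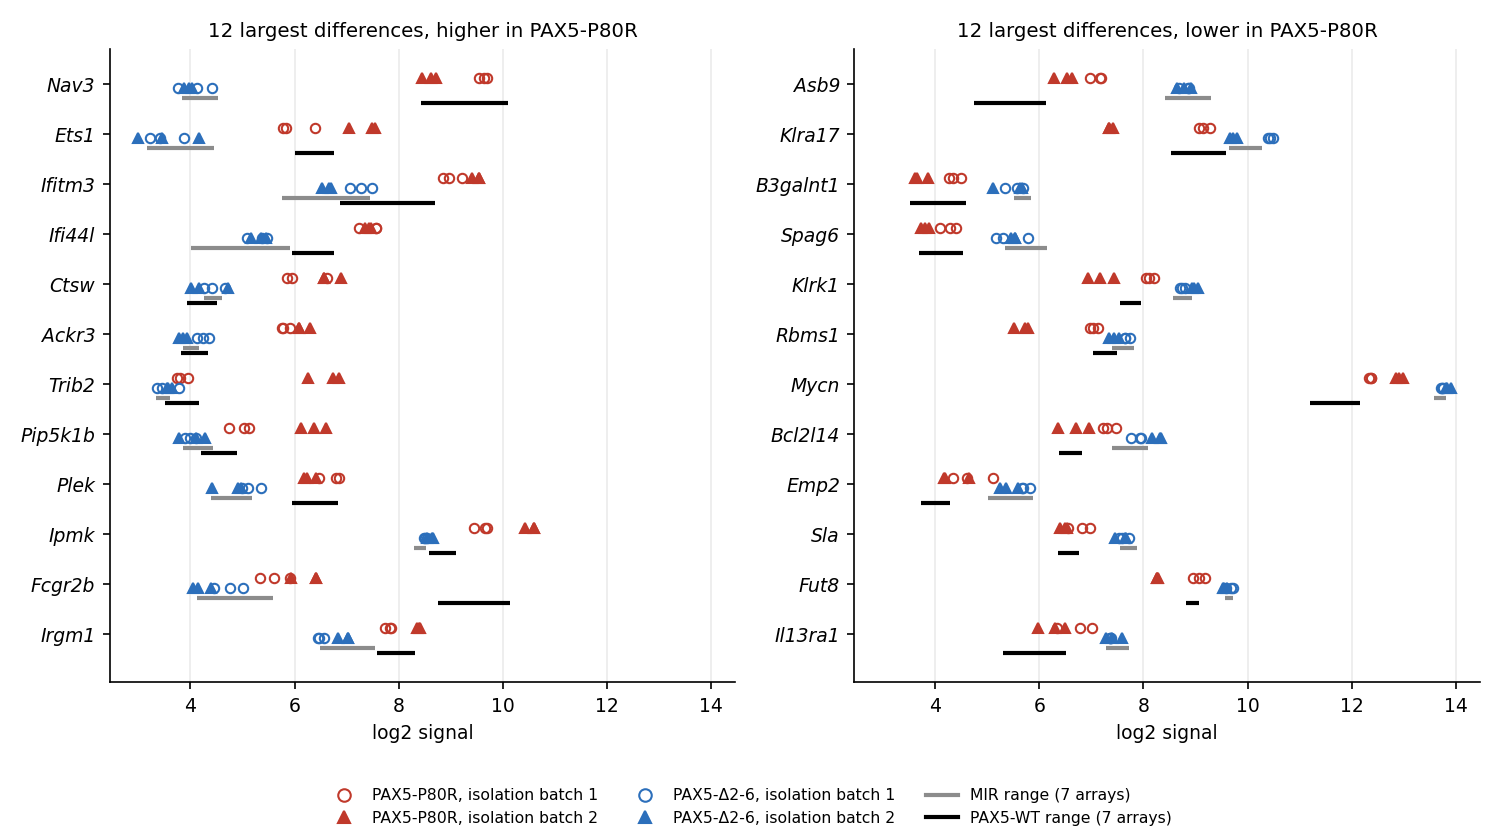
Log2 signal (x axis) of the 12 genes with the largest called difference in each direction, with 1 point per array of PAX5-P80R (red) and PAX5-Δ2-6 (blue) and bars for the range of 7 MIR and 7 PAX5-WT arrays. Nav3 is at 8.44 to 9.69 in PAX5-P80R and 3.76 to 4.41 in PAX5-Δ2-6; only Trib2 has overlapping arrays, and its 3 PAX5-P80R arrays of batch 2 are the high ones.

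Ifi44l, Irgm1 and Ifitm3, all known to be induced by interferon, were among the 12 largest higher genes, and the fixed interferon list had calls in both directions. Ifi44l was at 7.24, 7.44 and 7.57 (lowest, median and highest) in PAX5-P80R and at 5.09, 5.36 and 5.48 in PAX5-Δ2-6. The groups did not overlap, and the gap was alike in both batches (2.14 and 2.10). It was 4.35-fold higher (2.12 ± 0.08, adjusted p = 1.23e-08, limma), and PAX5-WT raised it by 1.21 over MIR. Irgm1, an interferon-induced GTPase of defence against intracellular pathogens, was at 7.74, 8.11 and 8.4 against 6.45, 6.7 and 7.03. Both constructs had their higher Irgm1 values in batch 2, and the difference was 1.31 in batch 1 and 1.42 in batch 2 (1.37 ± 0.05 over both, adjusted p = 1.23e-08, limma). Ifitm3, a membrane protein that limits virus entry, was at 8.85, 9.31 and 9.54 against 6.53, 6.88 and 7.48. It was 4.92-fold higher (2.30 ± 0.18, adjusted p = 1.4e-05, limma), and more so in batch 2 (2.87) than in batch 1 (1.73). Of 23 measured genes of the interferon list, 2 were higher (Irgm1 and Rsad2) and 2 lower (Mx1 and Zbp1), beside 1.4% and 0.848% of all genes, with a median difference of 0.02 against -9e-04 over all genes. Ifi44l and Ifitm3 are not on that list. Rsad2, the antiviral enzyme viperin, differed by 0.58 ± 0.14, and Mx1, a dynamin-like antiviral GTPase, by -0.59 ± 0.11. Zbp1, a sensor of nucleic acid, differed by -0.54 ± 0.09. By batch 1 and batch 2, Rsad2 differed by 0.18 and 0.98, Mx1 by -0.38 and -0.81 and Zbp1 by -0.27 and -0.81. The Rsad2 call was lost in 9 of 12 fits that each left out 1 array (adjusted p up to 0.111, limma), and the Zbp1 call without the batch term (adjusted p = 0.259, limma). The other Rsad2 probe sets differed by more, 0.78 ± 0.13 and 0.92 ± 0.11. Rsad2 was called with the mean of its probe sets (0.76, adjusted p = 0.00349, limma).

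The promoter windows of 2 of these genes are shown because they hold the letters of the interferon-stimulated response element (GAAA, any 2 bases, GAAA), searched on both strands and printed in capitals. The windows are RefSeq's on GRCm38.p6, 250 bases before to 50 after the annotated gene start. Irgm1 (chr11:48871371-48871670, minus strand) has 2 overlapping matches, which start at -30 and -24. Ifitm3 (chr7:141010695-141010994, minus strand) has 2 matches, which start at +3 and +20.
Irgm1: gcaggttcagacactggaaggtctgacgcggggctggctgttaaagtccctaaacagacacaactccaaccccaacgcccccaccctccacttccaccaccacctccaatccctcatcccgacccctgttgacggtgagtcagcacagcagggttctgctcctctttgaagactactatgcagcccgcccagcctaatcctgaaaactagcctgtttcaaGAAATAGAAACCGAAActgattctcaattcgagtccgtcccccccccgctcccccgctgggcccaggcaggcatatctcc
Ifitm3: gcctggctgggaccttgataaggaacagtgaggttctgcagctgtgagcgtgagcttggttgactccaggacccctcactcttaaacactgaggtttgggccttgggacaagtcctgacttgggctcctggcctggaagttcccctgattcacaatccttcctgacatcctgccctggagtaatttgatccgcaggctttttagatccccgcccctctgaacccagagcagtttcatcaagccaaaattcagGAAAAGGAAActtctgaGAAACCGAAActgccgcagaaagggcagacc
The letters were in 3.59% of the windows of 13605 tested genes, in 3.63% of 193 windows of genes higher in PAX5-P80R and in 6.67% of 120 windows of genes lower. The PAX5 paired-domain letters GCNTGAC were in 13.3% of all these genes, 16.6% of the higher and 18.3% of the lower genes. The ETS letters GGAAGTG were in 14.4%, 16.6% and 15%. Shares of such short letters describe the windows and mark no binding site.

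Ptpn22, a phosphatase that restrains antigen receptor signalling, was at 9.57, 9.65 and 9.74 in PAX5-P80R and 8.44, 8.58 and 8.75 in PAX5-Δ2-6. The arrays of each construct lay close together, and the difference of 1.04 ± 0.05 (2.05-fold, adjusted p = 3.88e-07, limma) was near that of PAX5-WT over MIR (1.10). Its promoter window (chr3:103859545-103859844, plus strand), shown because it holds the paired-domain letters GCNTGAC in capitals at +29, is the first of its 2 RefSeq windows. The second window does not hold these letters, and neither do the windows of Irgm1 and Ifitm3.
Ptpn22: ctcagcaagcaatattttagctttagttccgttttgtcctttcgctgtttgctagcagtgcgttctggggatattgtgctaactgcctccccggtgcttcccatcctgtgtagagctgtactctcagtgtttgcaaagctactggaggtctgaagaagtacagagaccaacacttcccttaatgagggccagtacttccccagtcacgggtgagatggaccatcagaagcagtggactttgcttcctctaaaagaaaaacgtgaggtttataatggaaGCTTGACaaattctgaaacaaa
Plek, pleckstrin, a protein kinase C substrate of blood cells, was at 6.19, 6.44 and 6.86 against 4.42, 4.99 and 5.35. The groups did not overlap, and it differed by 1.53 ± 0.11 (adjusted p = 4.97e-06, limma), or 1.56 and 1.51 by batch. Ipmk, a kinase of inositol polyphosphates, was at 9.45, 10.06 and 10.6 against 8.48, 8.54 and 8.65, with its 3 highest arrays in batch 2. The Ipmk difference was 1.51 ± 0.13 (adjusted p = 3.76e-05, limma), and its other 2 probe sets gave 2.46 ± 0.20 and 1.22 ± 0.11. Pip5k1b, a kinase that makes phosphatidylinositol bisphosphate, differed by 1.63 ± 0.21, by 0.97 in batch 1 and 2.30 in batch 2. Inpp4b, a phosphoinositide phosphatase, differed by 0.95 ± 0.12, and Traf5, an adaptor of TNF receptors, by 0.94 ± 0.07 (adjusted p = 0.00106 and 7.82e-06, limma). Fcgr2b, an Fc receptor that inhibits B cell activation, was at 5.34, 5.92 and 6.42 against 4.05, 4.43 and 5.02, without overlap. Its difference was 1.47 ± 0.21 (adjusted p = 0.00258, limma), by 0.87 in batch 1, where it was not called alone, and 2.06 in batch 2. Its other 3 probe sets differed by 0.35 to 0.65 and were not called.

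Ctsw and Ackr3 were high in PAX5-P80R and not in PAX5-WT. Ctsw, cathepsin W, a protease known from cytotoxic lymphocytes, was at 5.85, 6.57 and 6.89 in PAX5-P80R and 4.02, 4.34 and 4.73 in PAX5-Δ2-6. MIR (4.27 to 4.61) and PAX5-WT (3.94 to 4.52) lay with PAX5-Δ2-6. The Ctsw difference was 2.03 ± 0.18 (adjusted p = 3.76e-05, limma), by 1.70 in batch 1 and 2.37 in batch 2, against -0.19 for PAX5-WT minus MIR. Ackr3, a scavenging receptor for the chemokine CXCL12, was at 5.75, 5.99 and 6.29 against 3.78, 4.03 and 4.36. MIR (3.86 to 4.17) and PAX5-WT (3.83 to 4.34) were again at the PAX5-Δ2-6 level. Ackr3 was 3.80-fold higher (1.93 ± 0.12, adjusted p = 2.13e-06, limma), by 1.56 in batch 1 and 2.29 in batch 2, against 0.04 for PAX5-WT minus MIR. The test of the difference between the 2 comparisons, added after seeing the data, gave 2.22 ± 0.19 for Ctsw and 1.89 ± 0.15 for Ackr3 (adjusted p = 8.68e-08 and 1.39e-08, limma). Both genes were named for the size of their difference here, which also enters that test. Dync1i1, an intermediate chain of cytoplasmic dynein, was called in opposite directions, at 0.84 ± 0.06 here and -0.23 for PAX5-WT minus MIR. Its levels were 8.99, 9.06 and 9.17 in PAX5-P80R and 8.07, 8.19 and 8.48 in PAX5-Δ2-6, without overlap.

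Among the lower genes, Asb9, an ankyrin-repeat adaptor of ubiquitin ligases, moved the most. It was at 6.29, 6.8 and 7.18 in PAX5-P80R and 8.64, 8.82 and 8.92 in PAX5-Δ2-6. MIR (8.41 to 9.29) lay with PAX5-Δ2-6, and PAX5-WT (4.75 to 6.13) was below PAX5-P80R. Asb9 was 4.00-fold lower in PAX5-P80R (-2.0 ± 0.11, adjusted p = 7.17e-07, limma). Mycn, the MYC family factor that drives growth, was among the brightest of these genes, at 12.33, 12.61 and 12.99 against 13.72, 13.78 and 13.91. The groups did not overlap, and MIR (13.58 to 13.81) lay at the PAX5-Δ2-6 level while PAX5-WT reached 11.2 to 12.15. Mycn was 2.23-fold lower (-1.16 ± 0.07, adjusted p = 3.26e-06, limma), with differences of -1.38 in batch 1 and -0.94 in batch 2. Its other 2 probe sets, at mean levels of 3.5 and 3.94, differed by -0.05 and 0.02.

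Klra17, a lectin-like receptor of the Ly49 family, was at 7.33, 8.24 and 9.27 against 9.67, 10.09 and 10.49, and Klrk1, which encodes the activating receptor NKG2D, was at 6.93, 7.74 and 8.21 against 8.71, 8.86 and 9.05. In both genes the 3 PAX5-P80R arrays of batch 2 were the lowest, and the groups did not overlap. The differences were -1.82 ± 0.16 for Klra17 and -1.21 ± 0.18 for Klrk1 (adjusted p = 3.93e-05 and 0.00356, limma). B3galnt1, which completes the glycolipid globoside, was at 3.62, 4.07 and 4.49 against 5.11, 5.61 and 5.69. Spag6, a protein of the sperm tail and cilia, was at 3.74, 3.99 and 4.41 against 5.17, 5.5 and 5.79. Both were near the array medians in PAX5-P80R and clear of them in PAX5-Δ2-6, with differences of -1.47 ± 0.13 and -1.43 ± 0.12. Of the other named lower genes, Rbms1 (an RNA- and DNA-binding protein) differed by -1.19 ± 0.17 and Bcl2l14 (a BCL2 family member) by -1.07 ± 0.17. Emp2 (a tetraspan membrane protein) differed by -1.05 ± 0.12, Sla (the Src-like adaptor, which dampens receptor signalling) by -0.97 ± 0.08 and Fut8 (the core fucosyltransferase) by -0.94 ± 0.11. Il13ra1, a chain of the interleukin-13 receptor, differed by -0.91 ± 0.13. By batch 1 and batch 2, Bcl2l14 differed by -0.54 and -1.6, Fut8 by -0.59 and -1.28 and Il13ra1 by -0.65 and -1.16. These 6 genes did not overlap between the groups.

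The wild-type protein's own response gave a frame that shares no array with the comparison. PAX5-WT raised 675 genes over MIR (3.95%) and lowered 529 (3.09%). Of the 675 raised genes, 91 were higher in PAX5-P80R than in PAX5-Δ2-6 (13.5%, beside 1.4% of all genes) and 5 were lower. Of the 529 lowered genes, 81 were lower (15.3%, beside 0.848%) and 10 were higher. Their median differences were 0.10 and -0.10. Among genes that PAX5-WT changed at least 1.5-fold, 40 of 107 raised genes were higher (median difference 0.36) and 20 of 41 lowered genes were lower (median difference -0.37). Seen from the other side, 38.1% of the 239 higher genes and 55.9% of the 145 lower genes were called in the same direction in PAX5-WT, and 57.7% and 40.7% were not called there. The differences of the 2 comparisons correlated at r = 0.669 over the wild-type response genes and r = 0.418 over all 17097 genes, given as descriptions across genes, which are not independent replicates.

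**Figure D2:**
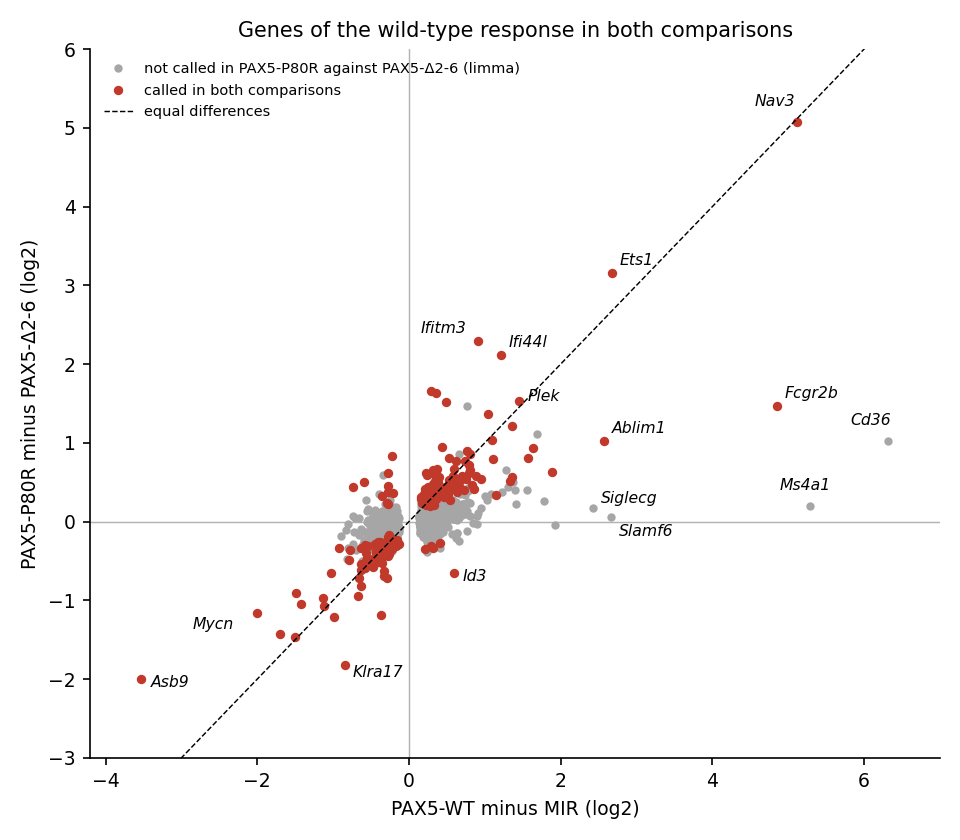
PAX5-P80R minus PAX5-Δ2-6 (y axis, log2) against PAX5-WT minus MIR (x axis, log2) for the 675 genes raised and 529 genes lowered by PAX5-WT, 1 point per gene, red where called in both comparisons. Nav3 and Ets1 lie near the dashed line of equal differences, while Ms4a1, Cd36 and Slamf6 lie near 0 on the y axis or far below the line.

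Averaged over genes, PAX5-Δ2-6 arrays were close to the empty vector and PAX5-P80R arrays lay between it and the wild-type protein. Over the genes that PAX5-WT raised, the mean level was 7.12 ± 0.04 in MIR (SD, n = 7), 7.14 ± 0.031 in PAX5-Δ2-6 (SD, n = 6), 7.30 ± 0.058 in PAX5-P80R (SD, n = 6) and 7.55 ± 0.016 in PAX5-WT (SD, n = 7). PAX5-P80R arrays (7.24 to 7.37) did not overlap with PAX5-Δ2-6 arrays (7.08 to 7.17). Over the genes that PAX5-WT lowered, the mean was 8.25 ± 0.012 in MIR, 8.21 ± 0.032 in PAX5-Δ2-6, 8.07 ± 0.058 in PAX5-P80R and 7.91 ± 0.036 in PAX5-WT. There PAX5-P80R arrays (7.98 to 8.13) were all below PAX5-Δ2-6 arrays (8.17 to 8.26). MIR and PAX5-WT set which genes enter these means, so their own positions are fixed by that choice.

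**Figure D3:**
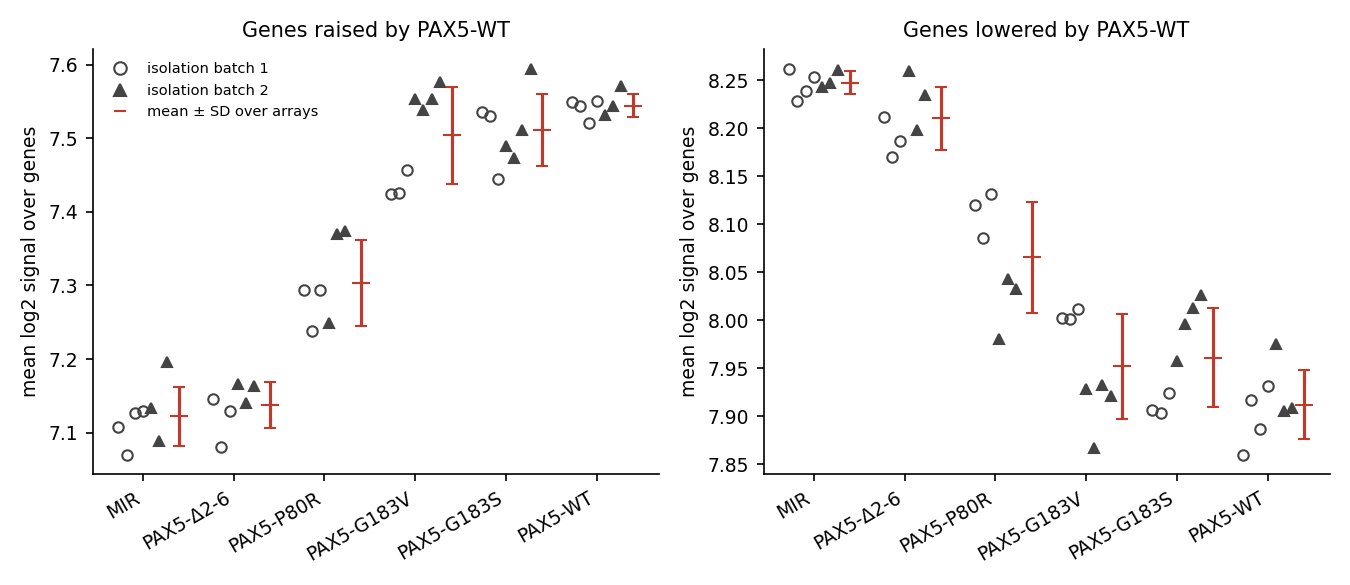
Mean log2 signal per array (y axis) over the genes raised (left) and lowered (right) by PAX5-WT against MIR, for the 6 groups, with the red bar as mean ± SD over arrays. PAX5-P80R arrays (7.24 to 7.37 on the left) lie between PAX5-Δ2-6 arrays (7.08 to 7.17) and PAX5-WT arrays (7.52 to 7.57).

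The share of the wild-type change seen in PAX5-P80R differed by gene. Several of the largest wild-type responses had little or no counterpart. Ms4a1, which encodes the B cell surface protein CD20, was at 3.54, 3.89 and 4.32 in PAX5-P80R and 3.49, 3.68 and 4.02 in PAX5-Δ2-6, while PAX5-WT reached 8.49 to 9.73. The 2 constructs overlapped for Ms4a1 (0.20 ± 0.14, adjusted p = 0.63, limma), and PAX5-WT raised it by 5.29. Slamf6, a receptor of the SLAM family, differed by 0.06 ± 0.13 here and 2.67 in PAX5-WT, and Siglecg, an inhibitory lectin of B cells, by 0.17 ± 0.17 and 2.43. P2ry10, a receptor for lysophospholipids, differed by -0.04 ± 0.09 and 1.92. The difference between the comparisons, a test added after seeing the data, was -5.09 ± 0.28 for Ms4a1 (adjusted p = 2.16e-11, limma), -2.61 ± 0.52 for Slamf6, -2.25 ± 0.23 for Siglecg and -1.96 ± 0.45 for P2ry10, all called. Fcgr2b and Ablim1 (an actin-binding LIM protein), both called higher in PAX5-P80R, also had smaller differences than in PAX5-WT, with -3.39 ± 0.34 and -1.56 ± 0.24 between the comparisons. This test called 278 genes (1.63%), of which 190 were genes of the wild-type response. In 186 of these 190 the PAX5-P80R minus PAX5-Δ2-6 difference was closer to 0 than that of PAX5-WT or had the opposite sign. The 190 were chosen by the PAX5-WT minus MIR difference, which also enters this test, so that count is largely fixed by the choice. Ms4a1, Slamf6, Siglecg, P2ry10, Fcgr2b, Ablim1, Asb9 and Mycn were named by the same difference, so their tests are not independent of the choice. The difference between the comparisons was called for Asb9 (1.53 ± 0.19) and Mycn (0.85 ± 0.19), where PAX5-WT lowered the gene further. It was also called for Ifitm3 (1.39 ± 0.32), Pip5k1b and Ipmk, which PAX5-WT raised by less than the difference here, by 0.91, 0.36 and 0.49. For Klra17 it was -0.98 ± 0.21, with a difference of -1.82 here and -0.84 for PAX5-WT minus MIR. Ifitm3, Pip5k1b, Ipmk and Klra17 were named for the size of their difference here, which also enters this test. An excess over PAX5-WT is therefore favoured by the choice. Their differences were also larger in size in batch 2 than in batch 1, for which this test has no term.

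The wild-type response and this comparison called 15 genes in opposite directions. Of the 675 raised genes 5 were lower (0.741%, beside 0.848% of all genes), and of the 529 lowered genes 10 were higher (1.89%, beside 1.4%). Both counts are near the shares over all genes. Of the 5 lower ones, Id3, an inhibitor of E-protein transcription factors, was at 5.67, 6.31 and 6.83 in PAX5-P80R and 6.2, 7.07 and 7.34 in PAX5-Δ2-6. Both constructs had lower Id3 values in batch 2, and the groups overlapped only across batches, with differences of -0.57 and -0.73 within them. Id3 differed by -0.65 ± 0.10 (adjusted p = 0.00435, limma), PAX5-WT raised it by 0.59, and without the batch term it was not called (adjusted p = 0.298, limma). Lactb (a mitochondrial filament protein), Dgke (a diacylglycerol kinase), Lipa (the lysosomal acid lipase) and Apobec1 (a cytidine deaminase) differed by -0.34, -0.33, -0.31 and -0.27. The calls of Dgke, Lipa and Apobec1 were each lost in 8 to 10 of 12 fits that left out 1 array. Of the 10 higher ones, Dync1i1 had the largest difference, then Alcam, an adhesion molecule of leukocytes, at 0.62 ± 0.11, Pip5kl1, Pqlc3 and Abcd2, a peroxisomal fatty acid transporter, at 0.50, 0.45 and 0.44. Without the batch term Pip5kl1, Abcd2 and Lactb were not called (adjusted p = 0.305, 0.0951 and 0.229, limma). In the fit on all 40 arrays Pip5kl1, Abcd2 and Alcam were not called (adjusted p = 0.141, 0.215 and 0.0689, limma).

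The plot of list members shows the calls of the 22 gene lists, to be read beside the 2.25% of all genes that were called. A list of about 20 genes with 0 or 1 call is close to that share. Of 22 measured genes that PAX5 is known to activate, 0 were higher and 1, Id3, was lower (4 at an unadjusted p under 0.05), with a median difference of -0.02. PAX5-WT itself raised 7 of these 22 genes over MIR and lowered 1. Cd79a, a signalling chain of the B cell receptor and a classical target, differed by -0.10 ± 0.08 (adjusted p = 0.69, limma), at 4.17 to 4.57 in PAX5-P80R and 4.28 to 4.73 in PAX5-Δ2-6. PAX5-WT did not move Cd79a in this line either (0.01 over MIR, adjusted p = 0.954, limma). Of 22 genes that PAX5 is known to repress, Flt3, a cytokine receptor of progenitors, was higher (0.51 ± 0.11) and Jchain was lower. PAX5-WT also raised Flt3, by 1.33, and the Flt3 call was lost in 9 of 12 fits that left out 1 array (adjusted p up to 0.0839, limma). Of 24 B cell surface receptors, Fcgr2b and Cd37, a tetraspanin, were higher (Cd37 0.50 ± 0.08) and Tnfrsf17 was lower. Of 22 genes of B cell receptor signalling, Themis2, an adaptor, was higher (0.30 ± 0.05).

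Of 25 transcription factors of the B lineage, 4 were higher and 2 lower, beside 1.4% and 0.848% of all genes, with a median difference of 0.06. Besides Ets1, the higher ones were Tcf4 (the E protein E2-2) at 0.45 ± 0.07, Id2 (an E-protein inhibitor) at 0.40 ± 0.09 and Ikzf1 (Ikaros) at 0.29 ± 0.05. The lower ones were Id3 and Tcf12 (the E protein HEB) at -0.30 ± 0.04. So both E proteins and their inhibitors were called in either direction. The Id2 call was lost in 8 of 12 fits that left out 1 array, and the Ikzf1 call when the mean of its probe sets was used (adjusted p = 0.415, limma). Irf4 and Prdm1, which direct plasma cell differentiation, differed by 0.06 ± 0.05 and -0.07 ± 0.06 and were not called (adjusted p = 0.73 and 0.69, limma).

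Plasma cell genes had 1 higher and 4 lower calls among 13 measured, beside 1.4% and 0.848% of all genes, with a median difference of -0.07. Jchain, the joining chain of secreted IgM and IgA, was at 12.23, 12.29 and 12.34 in PAX5-P80R and 12.35, 12.54 and 12.8 in PAX5-Δ2-6. Tnfrsf17, which encodes the survival receptor BCMA, was at 9.58, 9.83 and 10.13 against 10.14, 10.15 and 10.23. Neither gene overlapped, but each gap was narrow. The differences were -0.28 ± 0.06 for Jchain, -0.30 ± 0.07 for Tnfrsf17, -0.35 ± 0.06 for Eaf2 (an elongation factor) and -0.34 ± 0.08 for Ly6c1 (a surface antigen of plasma cells and myeloid cells). By batch 1 and batch 2, Jchain differed by -0.12 and -0.45 and Tnfrsf17 by -0.15 and -0.45. Eaf2 differed by -0.20 and -0.50 and Ly6c1 by -0.15 and -0.52. None was called in batch 1 alone, and the change between batches was not called either. For Jchain, PAX5-Δ2-6 was at 12.35 to 12.43 in batch 1 and 12.65 to 12.8 in batch 2. Fkbp11, a chaperone of secretory cells, was higher at 0.31 ± 0.05, but not called when the mean of its probe sets was used (adjusted p = 0.496, limma). The Jchain, Tnfrsf17 and Ly6c1 calls were each lost in 8 or 9 of 12 fits that left out 1 array, with adjusted p up to 0.102, 0.101 and 0.117 (limma). In the fit on all 40 arrays Jchain and Tnfrsf17 were not called (adjusted p = 0.474 and 0.303, limma), while Eaf2 and Ly6c1 were. Of 4 measured immunoglobulin genes, Jchain was called. Of 21 genes of the unfolded protein response, which sustains secretion, 0 were called by limma (3 at an unadjusted p under 0.05).

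Antigen presentation by MHC class II had 3 of 14 genes higher and 0 lower, beside 1.4% and 0.848% of all genes, with a median difference of 0.17. H2-DMa, which loads peptide on class II molecules, was at 5.29, 5.56 and 6.49 in PAX5-P80R and 4.42, 4.56 and 4.77 in PAX5-Δ2-6. The groups did not overlap, and H2-DMa differed by 1.21 ± 0.15 (adjusted p = 0.00106, limma), by 0.85 in batch 1 and 1.57 in batch 2. Cd74, the invariant chain, was at 6.82, 7.42 and 8.18 against 6.52, 6.8 and 7.04. Its PAX5-P80R arrays of batch 2 (7.89 to 8.18) were the highest, and those of batch 1 (6.82 to 6.96) were above PAX5-Δ2-6 of batch 1 (6.52 to 6.73) and overlapped only with PAX5-Δ2-6 of batch 2 (6.87 to 7.04). Cd74 differed by 0.67 ± 0.12, by 0.29 in batch 1 and 1.05 in batch 2 (adjusted p = 0.013, limma), and was not called with the batch as a random block (adjusted p = 0.152, limma). H2-Eb1, a class II chain, differed by 0.23 ± 0.05, a call lost in 10 of 12 fits that left out 1 array. Ciita, the class II transactivator, was at 3.82 to 4.24 and 3.8 to 4.24 (-0.02 ± 0.09).

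**Figure D4:**
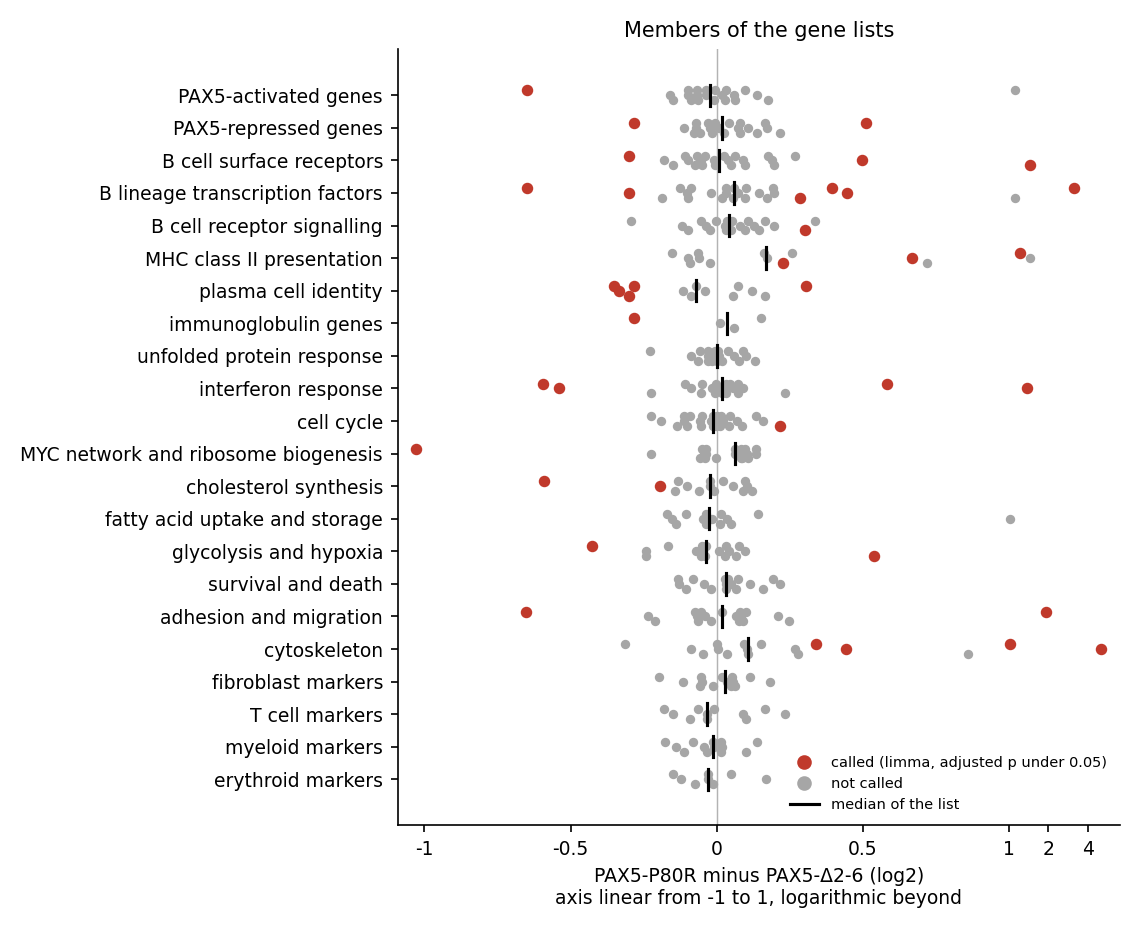
PAX5-P80R minus PAX5-Δ2-6 (x axis, log2) for each measured member of the 22 gene lists, red where called by limma, with the median of each list as a black line. The list medians lie between -0.07 (plasma cell identity) and 0.17 (MHC class II presentation), and Nav3 at 5.07 and Ets1 at 3.15 are the members farthest from 0.

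Of 17 cytoskeletal genes 4 were higher and 0 lower, beside 1.4% and 0.848% of all genes, with a median difference of 0.11. They were Nav3, Ablim1 (1.02 ± 0.18), Coro1a, an actin regulator of leukocytes (0.44 ± 0.08), and Fhod3, a formin (0.34 ± 0.07, lost in 8 of 12 fits that left out 1 array). Of 19 genes of adhesion and migration, Ackr3 was higher and Itga4, an integrin chain that binds VCAM1 and fibronectin, was lower. Itga4 was at 6.86, 7.18 and 7.47 against 7.58, 7.83 and 8.18, and differed by -0.65 ± 0.13, by -0.24 in batch 1 and -1.07 in batch 2. Its call was lost in 3 of 12 fits that left out 1 array, those without PAX5-P80R replicate 5 and without PAX5-Δ2-6 replicates 5 and 6 (adjusted p up to 0.0618, limma).

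The lists of growth and metabolism are likewise to be read beside 2.25% of all genes, a share near which lists of this size have 0 or 1 call. Of 20 genes of the MYC network and ribosome biogenesis, Mycn alone was called, with a list median of 0.06. Of 27 cell cycle genes, E2f2 was higher (0.22 ± 0.05, lost in 7 of 12 fits that left out 1 array), and the proliferation marker Mki67 was not called (-0.22, adjusted p = 0.059, limma). Of 15 genes of cholesterol synthesis, Fdps (farnesyl diphosphate synthase) and Cyp51 (lanosterol demethylase) were lower, at -0.59 ± 0.10 and -0.20 ± 0.04. The Cyp51 call was lost in 11 of 12 fits that left out 1 array, and the Fdps call without the batch term (adjusted p = 0.247, limma). Of 18 genes of glycolysis and hypoxia, Hif1a, the hypoxia factor, was higher (0.54 ± 0.06) and Txnip, a thioredoxin inhibitor induced by glucose, lower (-0.43 ± 0.05). The Txnip call was lost without the batch term (adjusted p = 0.257, limma). Of 14 genes of fatty acid uptake and storage and 17 of survival and death, 0 were called by limma (3 and 2 at an unadjusted p under 0.05).

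Of the markers of fibroblasts (14), T cells (11), myeloid cells (13) and erythroid cells (8), 0 were called by limma, with 0, 1, 1 and 0 at an unadjusted p under 0.05. So few calls are also near the 2.25% of all genes. Their mean levels per array overlapped between the constructs. The ranges in PAX5-P80R and PAX5-Δ2-6 were 3.67 to 3.74 and 3.64 to 3.76 for fibroblast markers, and 4.49 to 4.62 and 4.48 to 4.62 for T cell markers. They were 4.5 to 4.63 and 4.52 to 4.69 for myeloid markers, and 4.94 to 5.18 and 5.04 to 5.15 for erythroid markers. The T cell gene Cd3e was at 3.9 to 4.42 and 3.66 to 4.12.

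Of the 384 called genes, 310 had the larger difference in batch 2. The share over all genes was not counted, so whether this is particular to the called genes is not known. All 384 had the same sign in both batches, which their choice over both batches largely fixes. With batch 1 alone limma called 23 genes (0.135%), with batch 2 alone 250 (1.46%), and 22 were called in both in the same direction. Over all genes the differences of the batches correlated at r = 0.338, as a description. The test of the difference between batches (a construct by isolation batch term) called 21 genes (0.123%; 1567 at an unadjusted p under 0.05). In 20 of them the difference was larger in size in batch 2, and 11 were also called over both batches.

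The largest batch-dependent differences lay in the 3 batch 2 arrays of PAX5-P80R. H2-Aa, the alpha chain of the class II molecule I-A, was at 4.17, 4.36 and 4.13 in the PAX5-P80R arrays of batch 1 and at 6.72, 7.34 and 7.11 in those of batch 2. PAX5-Δ2-6 was at 4.08 to 4.24 in both batches, so H2-Aa differed by 0.04 in batch 1 and 2.89 in batch 2 (adjusted p of the batch term = 7.87e-05, limma). PAX5-WT was at 4.57 to 4.93 and 4.92 to 5.59 by batch, below the PAX5-P80R arrays of batch 2. H2-Ab1, its partner chain, differed by 0.14 and 1.31, and H2-Ea, of the I-E molecule, by 0.21 and 1.79. Trib2, a pseudokinase, was at 3.81, 3.75 and 3.95 in PAX5-P80R of batch 1 and 6.25, 6.85 and 6.73 in batch 2, against 3.36 to 3.78 in PAX5-Δ2-6. Its overall call (1.66 ± 0.39, adjusted p = 0.0473, limma) rests on batch 2, and was lost in 9 of 12 fits that left out 1 array.

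Spib, an ETS factor of B cells, differed by 0.20 in batch 1 and 2.02 in batch 2 (adjusted p of the batch term = 0.0143, limma), where its PAX5-P80R level of 6.49 to 6.65 was in the range of PAX5-WT (5.84 to 6.75). Cd36, a scavenger receptor for fatty acids, differed by 0.05 and 2.01. Its PAX5-P80R level of 5.51 to 5.73 in batch 2 was above PAX5-Δ2-6 (3.29 to 3.84) and below PAX5-WT (10.15 to 10.56), while MIR of batch 2 spread from 3.78 to 5.89. Over both batches this Cd36 probe set differed by 1.03 ± 0.29. The other Cd36 probe sets differed by 0.32 ± 0.25 and -0.02 ± 0.16, and none was called. Among lower genes, Klra17 differed by -1.28 and -2.36, Klrk1 by -0.62 and -1.80 and Rbms1 by -0.62 and -1.76. PAX5-Δ2-6 moved less than PAX5-P80R between the batches for Klrk1 and Rbms1, where PAX5-P80R was at 8.05 to 8.21 and 6.93 to 7.44 and at 6.98 to 7.13 and 5.52 to 5.79. Whether the isolation or the round of transduction goes with these values was not tested, since the labels give both changes together.

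**Figure D5:**
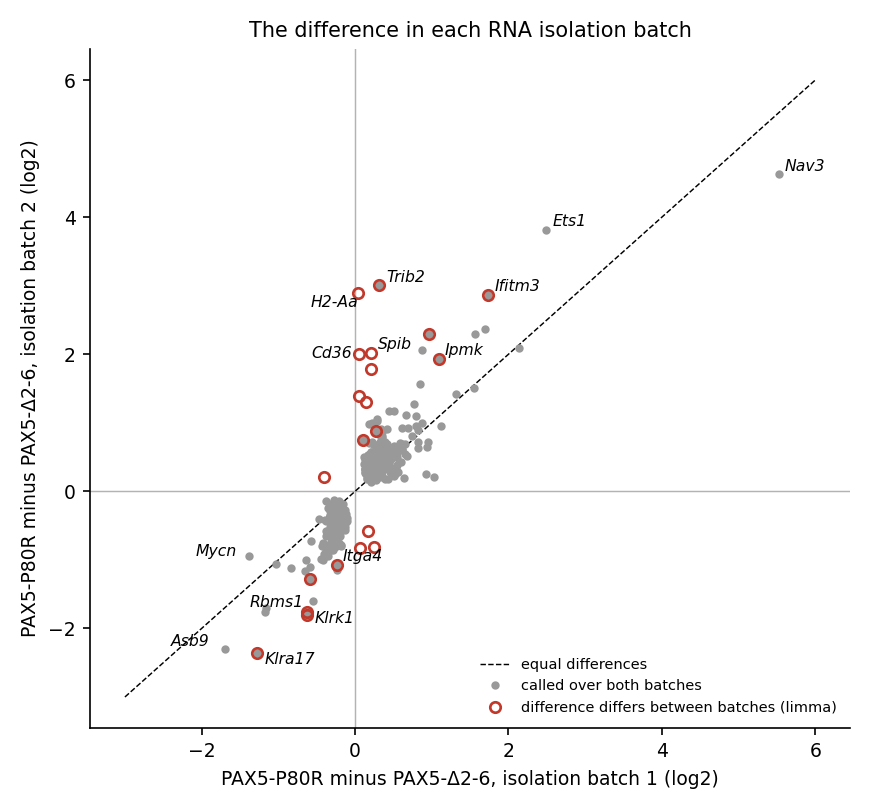
PAX5-P80R minus PAX5-Δ2-6 (log2) in isolation batch 2 (y axis) against batch 1 (x axis), 1 grey point per gene called over both batches and a red ring for each of the 21 genes whose difference differed between batches. H2-Aa and Trib2 are near 0 on the x axis (0.04 and 0.31) and high on the y axis (2.89 and 3.01), while Nav3 (5.52 and 4.63) and Mycn (-1.38 and -0.94) are larger in batch 1.

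Of the 488 called probe sets, 373 named 1 gene (1.29% of such probe sets) and 115 named no single gene (0.708%). Of these 115, 77 were higher and 38 lower in PAX5-P80R. Of 358 other probe sets of called genes, 311 had the sign of the probe set used.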

How the data were processed

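RNA of transduced J558LuM cultures was extracted with Trizol, labelled with a 3' IVT kit and hybridised to Affymetrix arrays, per the labels. The deposited values are log2 signals, which the authors computed by RMA according to the submitters' processing notes, with no version stated there. No further normalization was applied. GEO's platform annotation gives 28898 of the 45141 probe sets a single gene, 551 several and 15692 none. For each of 17097 genes the brightest probe set, by its mean in the 40 arrays, was used. The closest 2 of the 12 arrays had r = 0.9963, the farthest 0.992, and 0 columns were identical. The number of arrays limits the precision.

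R 4.3.3 with limma 3.58.1 fitted each gene on the 12 arrays with terms for construct and isolation batch, and the Benjamini-Hochberg adjustment ran over the 17097 genes. PAX5-WT was compared with MIR in their own fit with plate and isolation batch. The alternatives were other sets of arrays, batch terms, probe set rules, normalizations and limma options, and single arrays left out. The comparison, its gene lists (353 of 407 named genes measured) and alternatives were chosen with earlier results of these data known. The text names the 12 largest called differences each way, up to 4 genes per list, the largest wild-type and opposite responses and the 6 clearest batch terms. Ptpn22, Inpp4b, Traf5, Ciita, Cd22, Ebf1, Irf4, Prdm1, Xbp1, H2-Ea, H2-Eb1, Ikzf1, Id2, Tcf12 and Fhod3 were added after their values were seen.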

Additional observations from a re-analysis of the deposited data

Results flagged for a closer look

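Of 168 groups of arrays tested, 2 held an array that lay far from the other 5 of its construct by Dixon's test. Chance alone gives this in about 1 in 20 groups. PAX5-Δ2-6 replicate 4 had Il13ra1 at 7.59, with the others at 7.29 to 7.4. PAX5-Δ2-6 replicate 1 had Ly6c1 at 8.65, with the others at 8.88 to 8.99.

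The difference between the constructs differed between the isolation batches in 21 genes. The change from batch 1 to batch 2 was 2.86 for H2-Aa, 2.7 for Trib2, 1.96 for Cd36, 1.82 for Spib, 1.58 for H2-Ea, 1.33 for Pip5k1b, 1.17 for H2-Ab1, 1.13 for Ifitm3 and 0.84 for Ipmk. It was -1.18 for Klrk1, -1.14 for Rbms1, -1.09 for Klra17, -0.83 for Itga4 and -0.69 for Fut8. All are log2 differences from limma's construct by isolation batch term. Isolation batch and round of transduction cannot be told apart.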

How the results depend on the processing

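Against 384 called genes (239 higher, 145 lower), the isolation batch without a term gave 190 (135 and 55), as a random block 219 (151 and 68), batch 1 alone 23 (17 and 6) and batch 2 alone 250 (129 and 121). A filter on dim genes gave 721 (403 and 318), a trend in limma's variance 803 (449 and 354) and the 1.5-fold minimum 15 (10 and 5), and a fit on all 40 arrays gave 232 lower genes. Single arrays left out gave 210 to 325 called genes, 136 to 215 higher and 70 to 135 lower. The count fell by over 1.5 times without PAX5-P80R replicates 5 (210) and 6 (227) and PAX5-Δ2-6 replicates 4 (228), 5 (225) and 6 (216), all of batch 2. The batch term called 37 genes with the filter and 76 with the trend, against 21, and 5 to 18 without single arrays. PAX5-WT against MIR called 654 genes without batch terms and 36 with the 1.5-fold minimum.

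Of the genes PAX5-WT raised, 91 were higher in PAX5-P80R, with 59 without the batch term, 12 in batch 1 alone, 140 with the filter, 147 with the trend, 8 with the 1.5-fold minimum and 62 to 91 without single arrays. Of the genes it lowered, 81 were lower, with 36, 6, 129, 144, 5 and 42 to 74 in the same order, and 43 with the random block. Their median difference was -0.0611 in batch 1 and -0.15 in batch 2 alone, and single arrays left out gave -0.12 to -0.09, and 0.09 to 0.12 for the raised genes. Genes changed at least 1.5-fold by PAX5-WT gave 40 and 20 genes, medians of 0.36 and -0.37, and a signed level difference of 0.51 against 0.16.

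The replicate numbers gave no clear pairing of the arrays. Same-numbered arrays correlated at -0.087 to 0.193 in their deviations, and 3 of 6 correlated best with their own number. So few arrays cannot exclude a pairing. With a replicate block 164 genes were called (116 higher and 48 lower), 156 of them among the 384, and 56 raised and 34 lowered genes of the wild-type response. Of 65 named called genes, 23 lost the call with the replicate block, 22 without the batch term, 22 with the random block and 12 in the fit on all 40 arrays. The 15 that passed the 1.5-fold minimum kept it under every alternative that tested them, except Spag6 in batch 1 alone. The filter on dim genes removed Ackr3, B3galnt1, Ctsw and Spag6. None of the 65 changed sign. The cause of these changes in count was not tested.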
